A study of Mus musculus with 8 samples.

Results

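The 7 genes described here carry the antigen presentation pathway of the major histocompatibility complex (MHC) class II. They were taken by symbol from the deposited count table, in which they are 7 of 55487 genes, and all 7 passed the filter on low counts that left 14353 genes for testing. MHC class II molecules are displayed on the surface of dendritic cells, B cells and macrophages, where they offer peptides from ingested proteins to CD4+ T cells. H2-Aa and H2-Ab1 encode the alpha and beta chains of the I-A molecule, and H2-Eb1 encodes the beta chain of I-E. Cd74 encodes the invariant chain, which blocks the peptide groove until the molecule reaches the endosome. H2-DMa and H2-DMb1 encode the subunits of H2-DM, which exchanges the last fragment of the invariant chain for an antigenic peptide. Ciita encodes the coactivator that switches these genes on and is itself induced by interferon gamma.

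According to the labels and the paper, the libraries came from stromal vascular fractions of subcutaneous MC38 colorectal tumors. Such a fraction holds the cells left after GFP-labelled tumor cells were sorted out. By label, 4 libraries were from Bmal1+/+ hosts, wild type for this clock gene, and 4 from Bmal1-/- hosts, in which it is deleted in the whole body. The MC38 cells were the same wild type, GFP-expressing line in both groups. The mice came from Bmal1+/- founders, and the age and sex of the animals and the hour of collection are not given in the sources used here. Total counts ranged from 14054825 to 18449143 per library, so that 3 counts, the floor used here, stood for 0.163 to 0.213 CPM, the usual unit of counts scaled to a common library total.

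Some transcripts did not match the genotype or the tissue label, and sex transcripts followed the genotype label. These points touch every result below. Bmal1 (Arntl) had 30.1 to 35 CPM in the libraries labelled Bmal1-/- and 0.960 to 2.71 CPM in libraries labelled Bmal1+/+. This order is the reverse of what the labels lead one to look for. A count over the whole gene does not show whether its deleted part was read. The groups are therefore named by their labels throughout, and every direction given below would turn if the labels were exchanged, which was not tested. Xist had at least 844 CPM in every library labelled Bmal1+/+ and at most 0.749 CPM in the others, while Ddx3y of the Y chromosome had 0 CPM and at least 58.1 CPM in the same order, so sex transcripts and genotype label cannot be told apart. Hepatocyte transcripts were abundant in a fraction labelled as tumor stroma. A list of 8, Alb included, took 10.36% to 10.95% of the counts in libraries labelled Bmal1+/+ and 6.11% to 7.23% in the libraries labelled Bmal1-/-. The lower share lay with Alb, which had 64320 to 71870 CPM and then 12740 to 18830 CPM. Apoa1 and Fgb were higher in the libraries labelled Bmal1-/-, and the median log2 fold change of the 8 was 0.11. Fap, a fibroblast marker, had at most 7 counts in any library. Replicate 4 of the libraries labelled Bmal1-/- stood apart by its acute-phase transcripts, with 4.52% of counts on Saa1, Saa2, Hp, Orm1 and Fgb against 0.696% to 0.936% in the other 3. Its title is KO6, while replicates 1 to 3 are titled KO1 to KO3.

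Promoters of class II genes share an arrangement of short elements on which CIITA is recruited, an X box bound by the RFX complex and CREB and a Y box bound by NF-Y. The arrangement is shown here because it links H2-Aa and H2-Eb1 with H2-Ob, a subunit of the DM modulator H2-DO. The sequences are from RefSeq on GRCm38.p6, 5′ to 3′ on the strand of the gene, and all lie before the start of transcription. Capitals mark GNAAC, a part of the X box, and GATTGG, the core of the Y box.
H2-Aa, chr17:34287859-34287912, minus strand: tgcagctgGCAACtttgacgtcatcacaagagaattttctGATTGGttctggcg
H2-Eb1, chr17:34305768-34305820, plus strand: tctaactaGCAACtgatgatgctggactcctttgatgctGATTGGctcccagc
H2-Ob, chr17:34238810-34238860, plus strand: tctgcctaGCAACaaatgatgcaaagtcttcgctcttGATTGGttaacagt

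The gap between the motifs was 27 bases in H2-Aa, 26 in H2-Eb1 and 24 in H2-Ob. Of 7 genes, 4 had an entry in the promoter table, which runs from 250 bases before to 50 after each start, and H2-Aa, H2-Eb1 and H2-DMb1 held GNAAC followed on the same strand by GATTGG at a gap of 15 to 35 bases. Of all 32851 promoters in the table, 1.21% held this pair on either strand. GATTGG alone was in all 4 and in 16.1% of all promoters. The letters CACGTG, the E-box read by CLOCK and BMAL1, were in 0 of the 4 and in 7.15% of all promoters. The motifs were chosen with the sequences known. H2-Ab1, Cd74 and Ciita had no entry.

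All 7 genes had lower means in the libraries labelled Bmal1-/-, at 33.7% to 48.8% of the fitted level of those labelled Bmal1+/+, and 6 of the 7 passed the test with an adjusted p below 0.05. Of all 14353 genes tested, 16.2% were lower by the same rule. The median log2 fold change was -1.34 over the 7 genes and 0.02 over all genes tested. By the study's own criterion, an absolute log2 fold change above 1 with an unadjusted p below 0.05, all 7 were lower, against 8.71% of all genes lower and 5.41% higher. In 6 of the 7 no library labelled Bmal1-/- reached the lowest one labelled Bmal1+/+, as in 16.8% of all genes tested. Adjusted p-values come from the quasi-likelihood test of edgeR, corrected by Benjamini-Hochberg over all genes tested, SE is the standard error of a log2 fold change, and levels in CPM are normalized by TMM. In bulk RNA, fewer cells of a type and less RNA per cell cannot be told apart.

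**Figure D1:**
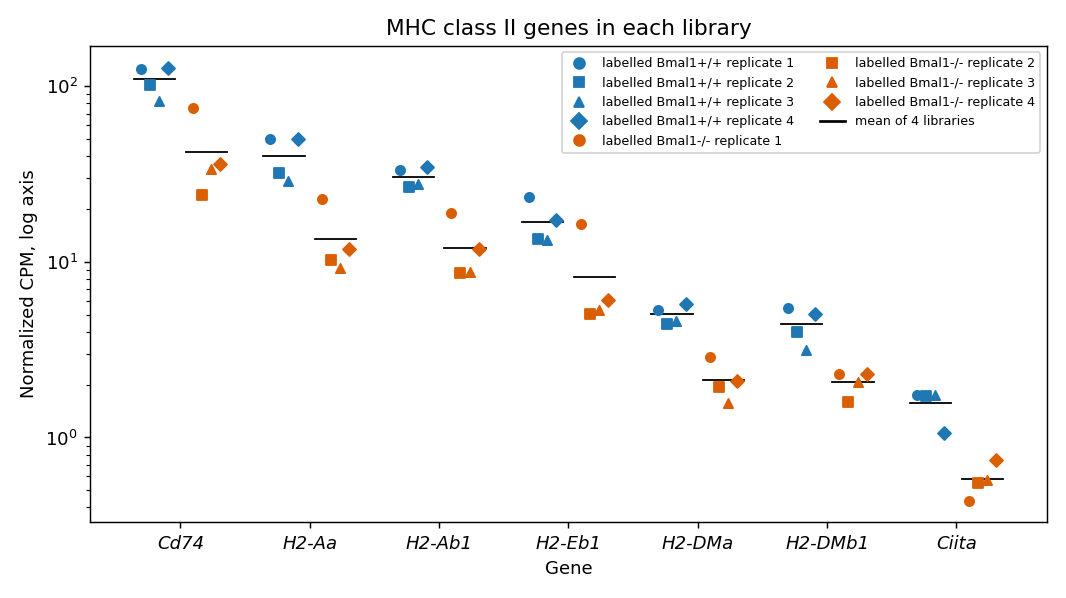
Normalized CPM (log axis) of the 7 MHC class II genes, with 1 point per library, a marker shape for each replicate and a black line at the mean of 4 libraries. Cd74 spans 83.0 to 128 CPM in libraries labelled Bmal1+/+ (blue) and 24.1 to 75.7 CPM in the libraries labelled Bmal1-/- (orange), and the groups overlap in H2-Eb1 alone among the 7.

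H2-Aa (ENSMUSG00000036594) lies on chromosome 17 of GRCm38 from 34282744 to 34287823. It had 49.8, 32.0, 29.0 and 49.8 CPM in replicates 1 to 4 labelled Bmal1+/+ and 22.7, 10.2, 9.18 and 11.9 CPM in the libraries labelled Bmal1-/-. The groups did not overlap, and replicate 1 was highest in the second. The alpha chain of I-A had a log2 fold change of -1.57 (SE 0.30, edgeR adjusted p = 0.0040).

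H2-Ab1, its partner chain, lies at 34257689 to 34269419 on the same chromosome. It had 33.3, 26.8, 27.8 and 34.6 CPM in libraries labelled Bmal1+/+ and 18.9, 8.66, 8.75 and 11.9 CPM in the libraries labelled Bmal1-/-. Again the groups did not overlap and replicate 1 was highest in the second. The log2 fold change was -1.34 (SE 0.24, edgeR adjusted p = 0.0027).

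H2-Eb1 lies at 34305867 to 34316674, beside these genes. It had 23.5, 13.6, 13.3 and 17.4 CPM in libraries labelled Bmal1+/+ and 16.4, 5.06, 5.34 and 6.11 CPM in the libraries labelled Bmal1-/-. Replicate 1 of the latter was above 2 libraries labelled Bmal1+/+, so the groups overlapped. The log2 fold change was -1.04 (SE 0.38) and did not pass the test (edgeR adjusted p = 0.063). Without replicate 1 of the libraries labelled Bmal1-/- it was -1.62 (edgeR adjusted p = 0.0014), and it also passed with DESeq2 (adjusted p = 0.020), limma-voom (adjusted p = 0.028) and a limma fit of log2 FPKM values (adjusted p = 0.043). The alpha chain gene of I-E, annotated as H2-Ea-ps on this genome, had 0 counts in every library. It is known to be silent in mice of the b haplotype.

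Cd74 (ENSMUSG00000024610), on chromosome 18 from 60803848 to 60812652, was the most abundant of the 7. It had 125, 102, 83.0 and 128 CPM in libraries labelled Bmal1+/+ and 75.7, 24.1, 33.7 and 36.1 CPM in the libraries labelled Bmal1-/-. The gap between the groups was narrow, because replicate 1 of the latter came near replicate 3 of the former. The log2 fold change was -1.37 (SE 0.32, edgeR adjusted p = 0.0097).

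The genes of the peptide exchange factor H2-DM lie at 34119541 to 34139101 (H2-DMa) and 34153072 to 34160230 (H2-DMb1) on chromosome 17. H2-DMa had 5.30, 4.42, 4.64 and 5.79 CPM in libraries labelled Bmal1+/+ and 2.87, 1.94, 1.57 and 2.10 CPM in the libraries labelled Bmal1-/-. H2-DMb1 had 5.48, 3.97, 3.16 and 5.07 CPM, and then 2.31, 1.59, 2.06 and 2.31 CPM. Neither gene overlapped between the groups. H2-DMa had a log2 fold change of -1.24 (SE 0.22, edgeR adjusted p = 0.0024) and H2-DMb1 one of -1.09 (SE 0.23, edgeR adjusted p = 0.0062).

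Ciita, on chromosome 16 from 10480059 to 10528418, was the rarest of the 7. Its counts were 29, 27, 26 and 19 in libraries labelled Bmal1+/+ and 7, 8, 8 and 11 in the libraries labelled Bmal1-/-. These counts carry wide counting errors, with exact 95% Poisson intervals of 11.4 to 29.7 for the lowest count of the first group and 5.49 to 19.7 for the highest of the second. As CPM the coactivator was at 1.06 to 1.75 and at 0.437 to 0.746, with no overlap. The log2 fold change was -1.43 (SE 0.29, edgeR adjusted p = 0.0050).

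Counting could have mixed some of these genes with others. Strand use in the counting is not given in the sources used here. An exon of H2-DMa overlaps an exon of Brd2, a widely expressed bromodomain gene on the opposite strand. Brd2 was at a mean of 98.8 CPM (SD 13.0, n = 4) in the group labelled Bmal1+/+ and 71.5 CPM (SD 11.6, n = 4) in the other. It was itself lower, with a log2 fold change of -0.47 (edgeR adjusted p = 0.031). An exon of Ciita overlaps one of Dexi, also on the opposite strand, which changed the other way, with a log2 fold change of 0.72 (edgeR adjusted p = 0.014). H2-DMb1 has a near copy, H2-DMb2, and their longest coding transcripts were identical at 95.5% of 1058 aligned bases. Reads could be split between them, and the values of both are uncertain in this respect. H2-DMb2 had 3 to 20 counts per library and a log2 fold change of -0.67 (edgeR adjusted p = 0.21).

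Levels of different genes were compared per length, on the authors' FPKM, whose fixed lengths (4711 bases for H2-Aa, 5390 for H2-Ab1) were longer than the annotated exons (3798 and 2568 bases). In both groups Cd74 was highest, H2-DMb1, H2-DMa and Ciita came last in this order, and the chains of the peptide-binding molecules lay between. Mean levels in libraries labelled Bmal1+/+ were 35.8 ± 6.83 FPKM for Cd74, 8.43 ± 2.37 for H2-Aa, 5.62 ± 0.726 for H2-Ab1, 4.80 ± 1.41 for H2-Eb1, 2.00 ± 0.483 for H2-DMb1, 0.717 ± 0.0889 for H2-DMa and 0.122 ± 0.0277 for Ciita (SD, n = 4 each). The ranges of H2-Aa and H2-Ab1 overlapped, as did those of H2-Ab1 and H2-Eb1, and the other neighbours in this order were separate. In the libraries labelled Bmal1-/- the means were 14.2 ± 7.81 FPKM for Cd74, 2.90 ± 1.38 for H2-Aa, 2.38 ± 1.62 for H2-Eb1 and 2.26 ± 0.927 for H2-Ab1 (SD, n = 4 each), with overlapping ranges from H2-Aa to H2-Ab1. H2-DMb1 was at 0.955 ± 0.148 FPKM, H2-DMa at 0.308 ± 0.0834 and Ciita at 0.0455 ± 0.00910 (SD, n = 4 each), each separate from its neighbours. Per kilobase of annotated exons, in normalized CPM, Cd74 stayed highest and H2-DMb1, H2-DMa and Ciita last, but H2-Ab1 came before H2-Aa in both groups, with means of 11.9 and 10.6 in libraries labelled Bmal1+/+ and overlapping ranges, so the order of the chains is not settled. This alternative was chosen after seeing the data.

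**Figure D2:**
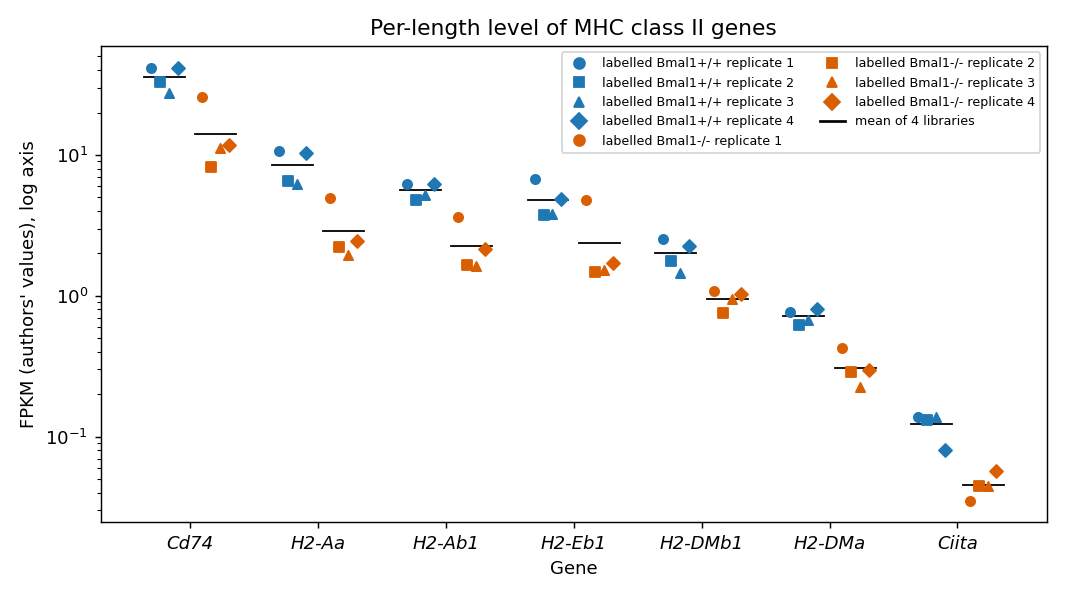
Per-length level (FPKM as deposited, log axis) of the 7 genes, with 1 point per library and a black line at the mean of 4 libraries. Cd74 is at the top in every library, with 27.6 to 41.7 FPKM in libraries labelled Bmal1+/+ and 8.18 to 25.7 FPKM in the libraries labelled Bmal1-/-, and Ciita at the bottom.

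Ratios of one gene to another overlapped between the groups. The ratio of Cd74 to H2-Aa FPKM was 3.91 to 4.97 in libraries labelled Bmal1+/+ and 3.66 to 5.71 in the libraries labelled Bmal1-/-. The FPKM ratio of H2-Aa to H2-Ab1, the chains of I-A, depends on those lengths and was 1.19 to 1.71 and 1.14 to 1.37 in the same order. Cd74 took 51.0% to 55.3% of the summed CPM of the 7 genes in libraries labelled Bmal1+/+ and 46.2% to 55.1% in the libraries labelled Bmal1-/-. The ratio of Cd74 to Ciita FPKM spread most, from 199.9 to 508.5 and from 183 to 729 with Ciita at 7 to 29 counts.

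Among the libraries labelled Bmal1-/-, replicate 1 was the highest for 6 of the 7 genes, with H2-DMb1 nearly equal in replicates 1 and 4. H2-Eb1 was there 2.99 times the mean of the other 3, Cd74 2.42 times, H2-Aa 2.18 times and H2-Ab1 1.94 times. H2-DMa was at 1.54 times and H2-DMb1 at 1.16 times. Ciita was lowest in this library, at 0.701 times the mean of the other 3, a difference between 7 counts and 8 to 11. Without replicate 1, all 7 genes passed the test and the median log2 fold change was -1.62. Without replicate 4, the library with high acute-phase transcripts, 6 of 7 passed and the median was -1.30.

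The other genes of the pathway were taken as a list of 31, of which 26 could be tested. Of these 26, 7 were lower and 4 were higher with adjusted p below 0.05, and 15 did not pass, against 16.2% lower and 14.9% higher among all genes tested. Their median log2 fold change was -0.30. The number called ranged from 4, without replicate 1 of Bmal1+/+, to 12, without replicate 4 of the libraries labelled Bmal1-/-. It was 6 without replicate 4 of Bmal1+/+ and 5 without replicate 2 of the libraries labelled Bmal1-/-.

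Of the other class II chains, H2-Ob of the modulator H2-DO had a log2 fold change of -1.05 (edgeR adjusted p = 0.042). That call was lost in 11 of 16 alternatives. H2-Oa, with 1 to 8 counts per library, H2-Eb2, with 0 to 3, and H2-Ea-ps were not tested.

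Of the 7 factors that bind the X and Y boxes, 3 were higher and 0 lower with adjusted p below 0.05. Among all genes tested, 14.9% were higher and 16.2% lower. The number higher was 1 without replicate 1 or 4 of Bmal1+/+. Without replicate 3 of the libraries labelled Bmal1-/-, 1 was lower. Rfxank, the ankyrin subunit of the RFX complex, had 9.08 to 12.5 CPM in libraries labelled Bmal1+/+ and 21 to 47.8 CPM in the libraries labelled Bmal1-/-, and rose by a log2 fold change of 1.64 (SE 0.24, edgeR adjusted p = 0.0010). The groups did not overlap. Nfyc, a subunit of NF-Y, was higher at 0.56 (edgeR adjusted p = 0.019), and Creb1, which binds beside RFX, at 0.82 (edgeR adjusted p = 0.046). The calls for Nfyc and Creb1 were lost in 2 and 9 of 17 alternatives. The other RFX subunits, Rfx5 and Rfxap, had log2 fold changes of -0.18 and 0.14 and edgeR adjusted p-values of 0.58 and 0.48.

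Of the genes that carry the interferon gamma signal to Ciita, Irf1, a transcription factor of this response, was lower. It had 15 to 17.7 CPM in libraries labelled Bmal1+/+ and 7.56 to 9.23 CPM in the libraries labelled Bmal1-/-. Its groups did not overlap, and its log2 fold change was -0.98 (SE 0.12, edgeR adjusted p = 3.5e-04). The receptor chains and kinases Ifngr1, Ifngr2, Jak1 and Jak2 had log2 fold changes between -0.24 and 0.09, and none passed. Jak2 changed sign under some scalings. Ifng itself had 0 or 1 count per library.

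Endosomal proteases moved in both directions. Ctss, which trims the invariant chain in professional antigen-presenting cells, had 36.8 to 51.8 CPM in libraries labelled Bmal1+/+ and 15.9 to 36.4 CPM in the libraries labelled Bmal1-/-, with a log2 fold change of -0.85 (edgeR adjusted p = 0.022). Ctsb was lower too, with -0.51 (edgeR adjusted p = 0.018). Ctsl, a related cathepsin that is also abundant outside immune cells, rose from 218 to 277 CPM in libraries labelled Bmal1+/+ to 440 to 484 CPM, with a log2 fold change of 0.97 (SE 0.11, edgeR adjusted p = 2.6e-04). The calls for Ctss and Ctsb were lost in 4 and 2 of 17 alternatives. Ctsd, Lgmn, Ifi30 and Sppl2a did not pass. Rfxank, Irf1, Ctsb and Ctsl share exon bases with other annotated genes, which adds the same uncertainty as for Ciita and H2-DMa.

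The costimulatory ligands Cd86 and Cd80, displayed beside class II molecules, were both lower. Cd86 had 4.03 to 7.29 CPM in libraries labelled Bmal1+/+ and 0.925 to 2.51 CPM in the libraries labelled Bmal1-/-, a log2 fold change of -2.07 (SE 0.32, edgeR adjusted p = 0.0013). Cd80 had a log2 fold change of -1.54 (edgeR adjusted p = 0.028) on 2 to 30 counts per library, and 7 of 16 alternatives did not call it. Cd40 was not tested, with 3 to 10 counts. The ubiquitin ligases March1 and March8, which remove class II molecules from the surface, did not pass. Their log2 fold changes were -0.48 and -0.87 (edgeR adjusted p = 0.37 and 0.098). March8 had 129 to 142 CPM in libraries labelled Bmal1+/+. It had 33.8, 88, 133 and 42.3 CPM in replicates 1 to 4 labelled Bmal1-/-, and 3 of 17 alternatives called it.

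**Figure D3:**
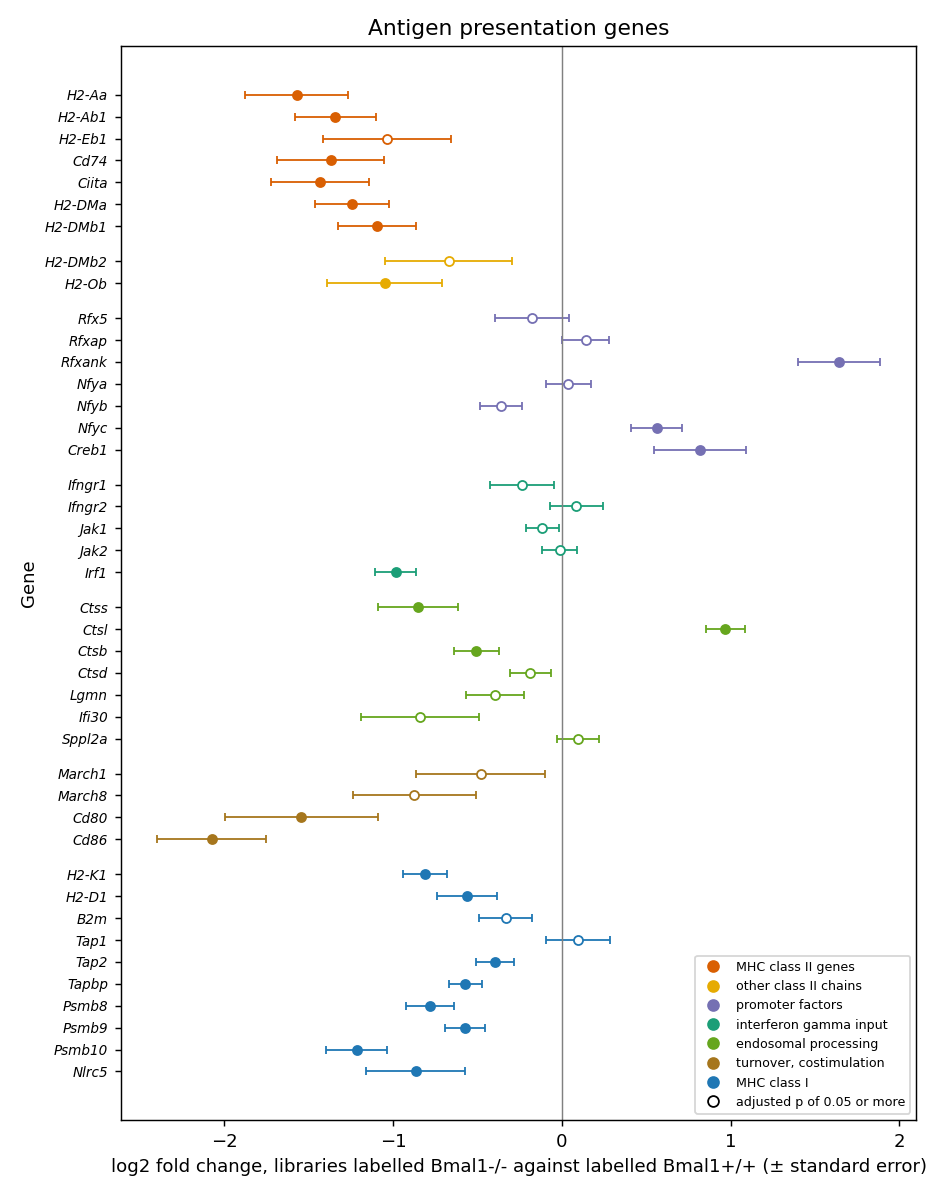
Log2 fold change (libraries labelled Bmal1-/- against Bmal1+/+) with its standard error for the 7 MHC class II genes, other tested genes of the pathway and 10 MHC class I genes. Filled points have an adjusted p below 0.05. The 7 class II genes lie between -1.57 and -1.04, Rfxank and Ctsl lie at 1.64 and 0.97, and the class I genes lie between -1.22 and 0.10.

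MHC class I molecules, which nearly all cells carry, were set beside class II. Of 10 genes of class I presentation, 8 were lower with adjusted p below 0.05 and 0 higher. Among all genes tested, 16.2% were lower and 14.9% higher. The median log2 fold change of the 10 was -0.57. H2-K1, a class I heavy chain, had 768 to 915 CPM in libraries labelled Bmal1+/+ and 405 to 516 CPM in the libraries labelled Bmal1-/-, a log2 fold change of -0.81 (SE 0.13, edgeR adjusted p = 0.0014). Psmb10, a subunit of the immunoproteasome, had -1.22 (edgeR adjusted p = 9.9e-04), and Nlrc5, the class I counterpart of Ciita, had -0.86 (edgeR adjusted p = 0.049), a call lost in 8 of 17 alternatives. H2-D1, Tap2, Tapbp, Psmb8 and Psmb9 were lower by 0.40 to 0.78 on the log2 scale, with the call for H2-D1 lost in 9 and that for Tap2 in 5 of 17 alternatives. B2m and Tap1 did not pass. Tap2, Tapbp, Psmb8, Psmb9 and Nlrc5 share exon bases with other annotated genes. The number of class I genes called was 5 without replicate 1, 2 or 3 of Bmal1+/+ or without replicate 1 of the libraries labelled Bmal1-/-. The difference between the class II and the class I changes was not tested.

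Markers of the cells that carry class II molecules moved in the same direction in part. Ptprc (CD45), found on all leukocytes, had 19.0 to 24.1 CPM in libraries labelled Bmal1+/+ and 4.27 to 13.8 CPM in the libraries labelled Bmal1-/-, with a log2 fold change of -1.36 (SE 0.29, edgeR adjusted p = 0.0063). Of 12 macrophage and Kupffer cell markers, 11 were lower and 0 higher, against 16.2% lower and 14.9% higher among all genes tested. Their median log2 fold change was -1.07. Their summed level was 776 to 977 CPM in libraries labelled Bmal1+/+ and 342 to 695 CPM in the libraries labelled Bmal1-/-. The number lower was 7 without replicate 1 of Bmal1+/+ or without replicate 1, 2 or 3 of the libraries labelled Bmal1-/-, and 12 without replicate 4 of the latter. Clec4f, a Kupffer cell lectin, had 160 to 203 CPM and 85.9 to 143 CPM in the same order.

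Of 10 dendritic cell markers, 5 could be tested. Lower were 2 of these, the integrin Itgax and the transcription factor Irf8, beside 16.2% of all genes. Zbtb46 and Batf3, transcription factors of these cells, had log2 fold changes of 0.30 and 0.13. The median of -0.68 ranged from -1.02, without replicate 1 of the libraries labelled Bmal1-/-, to -0.26, without replicate 3 of that group, and was -0.37 and -0.27 without replicates 2 and 3 of Bmal1+/+ and -0.35 without replicate 4 of Bmal1-/-. In all of these but the first, 6 genes could be tested. Flt3, Xcr1, Cd209a, Ccr7 and Siglech had at most 16 counts in any library, and the summed level of the list was 28.4 to 31.6 CPM in libraries labelled Bmal1+/+ and 17.4 to 22.5 CPM in the libraries labelled Bmal1-/-. Irf8 alone had 12.6 to 17.6 CPM and 4.34 to 8.48 CPM of this sum in the same order. Clec9a, whose log2 fold change was the median of -0.68, shares exon bases with Clec1b on the same strand. Of 7 B cell markers, 5 could be tested and 1 was lower, Cd22, beside 16.2% of all genes. Their median was -0.63, or -0.40 without replicate 1 of the libraries labelled Bmal1-/-, and 2 were lower without replicate 3 of Bmal1+/+ or replicate 4 of Bmal1-/-. The B cell list summed to 11.4 to 16.5 CPM and 5.89 to 13.0 CPM, with Ms4a1 and Pax5 at 2 to 8 counts in all libraries. Of 6 T cell markers, 2 could be tested, Cd3e and Cd4, and neither passed, and this list summed to at most 5.01 CPM. In fits without replicate 2 of Bmal1+/+ or without any 1 replicate of Bmal1-/-, 3 could be tested and 1 was lower. Without replicate 4 of Bmal1-/-, 1 was also higher. No marker on these lists of leukocytes was at 0 in every library. The part of these cells in the class II difference was not tested.

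Within the libraries labelled Bmal1-/-, most class II genes and the macrophage markers had different highest libraries. Ciita was highest in replicate 4, as were the macrophage markers, but on 11 counts with an exact 95% Poisson interval of 5.49 to 19.7. Its counts of 7, 8 and 8 in replicates 1 to 3 lay within that interval. All 12 macrophage markers were highest in replicate 4, at 1.63 to 9.11 times the mean of the other 3, and the median gene of the class II list was there at 0.980 times that mean. In replicate 1 the macrophage markers were at a median of 0.83 times the mean of the other 3, against 1.94 for the class II genes. The summed CPM of the 7 genes was therefore 0.361 of the macrophage sum in replicate 1 and 0.102 in replicate 4, with 0.193 to 0.288 in the 4 libraries labelled Bmal1+/+. The ratio to Ptprc was 15.7, 7.68, 14.3 and 5.14 in replicates 1 to 4 and 7.12 to 11.5 in libraries labelled Bmal1+/+. The groups overlapped in both ratios. Class I genes were highest in replicate 4 for 7 of 10.

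**Figure D4:**
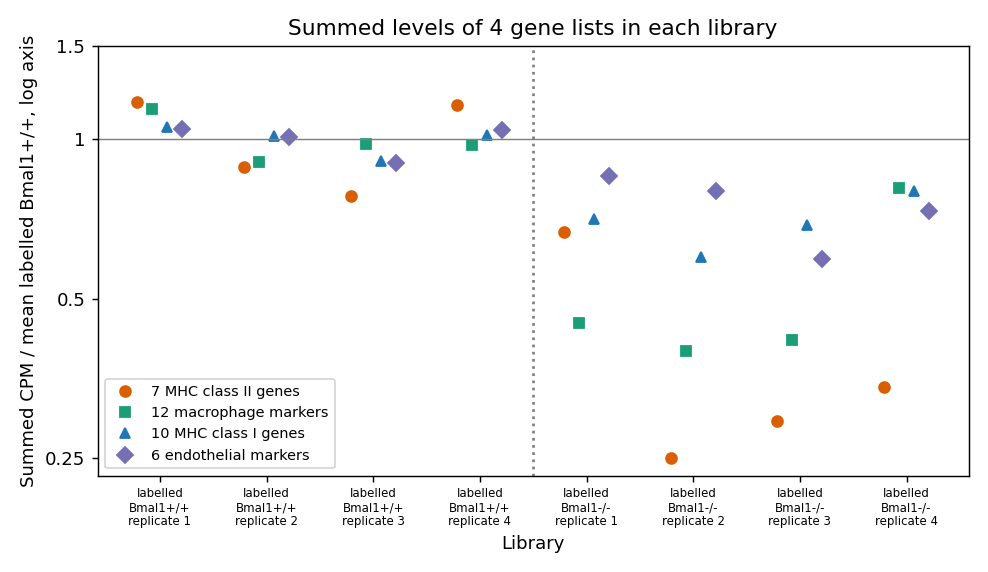
Summed normalized CPM of the 7 MHC class II genes, 12 macrophage markers, 10 MHC class I genes and 6 endothelial markers in each library, divided by the mean of the 4 libraries labelled Bmal1+/+ (log axis). In the libraries labelled Bmal1-/-, the class II sum is at 0.669, 0.25, 0.293 and 0.341 in replicates 1 to 4 and the macrophage sum at 0.451, 0.398, 0.418 and 0.810.

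Endothelial cells can also carry class II molecules. Of 6 endothelial markers, 5 were lower, beside 16.2% of all genes, with a median log2 fold change of -0.60. The number lower was 3 without replicate 1 or 2 of Bmal1+/+ or without replicate 2 or 4 of the libraries labelled Bmal1-/-. The ratio of the class II sum to the endothelial sum was 0.722 to 0.938 in libraries labelled Bmal1+/+ and 0.262 to 0.657 in the libraries labelled Bmal1-/-, without overlap. The ratios to the other sums overlapped. In the same order, they were 5.14 to 8.30 and 2.74 to 6.19 for dendritic cell markers. For B cell markers they were 11.2 to 16.6 and 5.46 to 17.9, and for class I genes 0.0552 to 0.0732 and 0.0269 to 0.0610. The scavenger receptor Stab2, a sinusoidal marker, had a log2 fold change of -0.06 (edgeR adjusted p = 0.74). Of 6 fibroblast markers tested, 3 were lower and 0 higher, beside 16.2% lower and 14.9% higher among all genes. Of 8 hepatocyte markers, 1 was lower, Alb, and 2 higher, Apoa1 and Fgb. Of 3 monocyte markers tested, 0 were lower and 1 higher, Cx3cr1, which had 2 to 6 counts in libraries labelled Bmal1+/+ and 44 to 135 in the others. Their part in the class II difference was not tested.

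The genes whose pattern was most like the mean of the 7 were sought among 13438 other genes whose mean level reached 1 CPM. Over the 8 libraries these were Eng, an endothelial coreceptor of TGF-β, Cxcl9, a chemokine induced by interferon gamma, the kinase Csnk1e, Ank3 and Agtrap, each with a Pearson r of log2 CPM of 0.985 or 0.986. The 8 points share the difference between the labels, to which r over all of them is sensitive. Cxcl9 had 31.8, 16.4, 13.2 and 32.7 CPM in libraries labelled Bmal1+/+ and 8.24, 3.19, 2.49 and 4.61 CPM in the libraries labelled Bmal1-/-. It was highest in replicates 1 and 4 labelled Bmal1+/+ and, in the other group, in replicate 1, as were Cd74 and H2-Aa. Cxcl9 was chosen by these same values, so the shared order is not separate evidence of a link. When each label mean was subtracted, the 5 most alike were Def8, Ccn4, Toe1, Ank3 and Itgb7, with r between 0.946 and 0.977. These too were picked as the highest of 13438 genes on few libraries, so their r is not separate evidence of a link. Ank3 alone was on both lists.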

How the data were processed

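RNA sequencing of 8 libraries was analysed. According to the methods, alignment to GRCm38 (Ensembl 102) used HISAT2 and counting used StringTie, and the authors deposited raw counts. The labels' processing notes name CASAVA 1.8 and TopHat2 2.0.6 instead, and the design text speaks of arrays. The deposited FPKM values of the authors are counts divided by the library total and 1 fixed length per gene. Symbols and positions are from GENCODE M21 (GRCm38), which matched 99.4% of identifiers. Groups follow the labels.

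Testing used the quasi-likelihood F test of edgeR 4.0.16 (R 4.3.3) after filterByExpr and TMM, with a prior count of 0.125, since the methods name edgeR and TMM. Standard errors were derived from the log2 fold change and the F statistic. The fit was tested on simulated data. These were drawn from its own means and dispersions, so they bear on the code and not on the labels, the tissue or the sex transcripts. DESeq2 1.42.0 and limma 3.58.1 (voom, and log2 of FPKM plus 0.1) were alternatives, beside upper-quartile factors, library size only, other low-count filters (none, or 10 counts in every library), a prior count of 2, each library left out in turn, and the replicate number as a block. The labels do not say whether the samples of a group are separate animals, so p-values measure the spread between these samples. Libraries of 1 label were not duplicates (chi-square per degree of freedom of at least 12.5). Intervals cover counting error only.

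The 7 genes, the gene lists and the tests were chosen with earlier results of these data known. Genes are named as the 7, the listed genes, their overlapping neighbours and the 5 most alike over the 8 libraries and within labels. Of the pathway list, 1 gene is counted but not reported here by name. Likeness used log2 CPM with a prior count of 2. March1, March8 and H2-Ea-ps are symbols of this annotation release. Figures were drawn with matplotlib 3.10.9.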

Additional observations from a re-analysis of the deposited data

Results flagged for a closer look

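In 86 groups of 4 libraries, 2 for each tested gene of class II and class I presentation, 7 had 1 library far from the other 3, where chance alone gives about 1 in 20. Of the 7 class II genes, H2-Eb1 was at 16.4 CPM in replicate 1 of the libraries labelled Bmal1-/-, with 5.06 to 6.11 CPM in the other 3, and Ciita was at 1.06 CPM in replicate 4 of Bmal1+/+, with 1.73 to 1.75 CPM in the others. Replicate 4 of Bmal1+/+ was also far from the rest for Rfx5, with 10.5 CPM against 7.11 to 7.52, and for Tap2, with 27.1 CPM against 34.1 to 35.5. Replicate 2 of the libraries labelled Bmal1-/- was far below the rest for Ctsl, with 440.0 CPM against 479 to 484, and for H2-K1, with 405 CPM against 502 to 516. Psmb9 was at 15.8 CPM in replicate 1 of Bmal1+/+, with 14 to 14.3 CPM in the others.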

How the results depend on the processing

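H2-Aa, H2-Ab1, Cd74, H2-DMa and H2-DMb1 kept their direction and call under all 17 alternatives, and Ciita under the 16 in which it was tested, with log2 fold changes from -1.94 to -0.60, the latter for Ciita on log2 FPKM, where a pseudocount of 0.1 is near its level. H2-Eb1 kept its direction in all 17 and was called in 5. The number of class II genes called was 5 of 6 tested with at least 10 counts in every library, which removed Ciita, and otherwise 6 or 7. The median of all genes tested moved by less than 0.1 under every scaling. Leaving out 1 library gave 6 to 7 calls among the 7 genes, 4 to 12 among the other pathway genes, 5 to 8 among class I genes and 3599 to 4714 among all genes. Among all genes more were lower than higher (2322 and 2135), and this order turned under scaling by library size alone (2177 and 2282) and on log2 FPKM (2220 and 2273).

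Of the genes of presentation, Nfya, Jak2 and Tap1 changed sign, none with a call. Over the fits that left out 1 library they ranged from -0.038 to 0.106, from -0.046 to 0.051 and from -0.027 to 0.268. Nfya was negative without replicate 4 of Bmal1+/+ and, at -0.023, without replicate 1 of the libraries labelled Bmal1-/-. Jak2 was at 0.015 with library size only, 0.019 on log2 FPKM, 0.051 without replicate 4 of Bmal1+/+, and 0.0051 and 0.0033 without replicates 1 and 2 of the libraries labelled Bmal1-/-. Tap1 was at -0.027 without replicate 2 of Bmal1+/+. The causes were not tested.

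The replicate numbers did not pair the samples, with correlations of same-numbered deviations between -0.064 and 0.063. With the replicate block all 7 class II genes, 11 other pathway genes, 6 class I genes and 3873 of all genes were called. With the annotated exon length, an alternative chosen after seeing the data, the mean per-length ratio of H2-Aa to H2-Ab1 was 0.875 and 0.750 in the groups labelled Bmal1+/+ and Bmal1-/-, against 1.48 and 1.27 with the lengths of the deposited FPKM. The depth limits Ciita, H2-DMb2, H2-Ob and the dendritic and B cell markers, which had few counts.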
